A study of Mus musculus with 4 samples.

Results

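The genes described here are 10 feedback and response genes of the transcription factor NF-kappaB, measured cell by cell in hearts of young mice. They are Tnfaip3, Nfkbia, Nfkbiz, Nfkbie, Kdm6b, Zc3h12a, Nfkb1, Relb, Icam1 and Birc3, and they were picked by symbol from the 31053 genes of the count matrices, where each had 1 row. The offspring of high-fibre dams (high_fibre) and those of control diet-fed dams (control_diet) gave 2 libraries each, numbered repeat 1 and repeat 2. Per the series text, high-fibre dams ate a diet rich in resistant starch through pregnancy and lactation, control dams ate one low in it, and all offspring had standard chow from 3 weeks and were killed at 6 weeks. Hearts were digested with collagenase and dispase, and live nucleated cells were sorted and run on 10x Genomics 3′ chemistry. Strain, sex and the number of animals behind a library are not given in the sources used here. The labels do not say what a repeat number shares. Every p-value between diets or repeats within a class is measured against the spread between libraries, which may be technical. Tests between classes and of interactions held library as a covariate, so theirs are measured against the spread left after it. Within a class, fits with 1 library left out set 1 library against 2, so the group of 1 adds nothing to the spread between libraries. The gene list and both groupings of the libraries were proposed with results of these libraries known, so the tests below describe these libraries and are no independent evidence. Which measured values led to the choice of the genes is not recorded in the sources used here, and the difference between repeats may be among them.

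NF-kappaB is held in the cytoplasm by inhibitors of the IκB family until a receptor for tumour necrosis factor, interleukin-1 or microbial products starts their destruction. The freed factor enters the nucleus and switches on inflammatory genes together with its own brakes. Macrophages are known for strong and fast responses of this kind. Among the genes here, Nfkbia encodes IκBα and Nfkbie encodes IκBε, inhibitors that the pathway itself induces. Tnfaip3 encodes A20, a ubiquitin-editing enzyme that stops signalling upstream of the inhibitors. Nfkbiz encodes the nuclear protein IκBζ, needed for a second set of target genes. Zc3h12a encodes Regnase-1, a nuclease that destroys inflammatory mRNAs, and Kdm6b encodes a histone demethylase induced in stimulated macrophages. Birc3 encodes cIAP2, a ubiquitin ligase of the receptor complexes. Nfkb1 and Relb encode subunits of NF-kappaB, and Icam1 encodes a surface protein that binds leukocytes.

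Promoter windows were looked up because 9 of these 10 genes had folds below 0 in the comparison of repeats below. RefSeq windows (GRCm38.p6, 250 bases before to 50 after a start site) were found for 6 members: Tnfaip3, Nfkbia, Nfkbie, Zc3h12a, Icam1 and Birc3. The decameric kappaB consensus was searched on both strands, and 8.46% of all 32851 windows held it. It was found in a window of 3 members, and those windows follow 5′ to 3′ on the gene's strand with each match in capitals. The matching Tnfaip3 window is chr10:19015361-19015660 on the minus strand, with matches beginning 125 and 12 bases before the start site. A second Tnfaip3 window, chr10:19011914-19012213, held no match. The share of 8.46% is counted per window, so it is not the share of genes with a matching window. The Nfkbia window is chr12:55492598-55492897 on the minus strand, with a match beginning 29 bases before the start site. The Nfkbie window is chr17:45555450-45555749 on the plus strand, with a match beginning 106 bases before the start site.
Tnfaip3: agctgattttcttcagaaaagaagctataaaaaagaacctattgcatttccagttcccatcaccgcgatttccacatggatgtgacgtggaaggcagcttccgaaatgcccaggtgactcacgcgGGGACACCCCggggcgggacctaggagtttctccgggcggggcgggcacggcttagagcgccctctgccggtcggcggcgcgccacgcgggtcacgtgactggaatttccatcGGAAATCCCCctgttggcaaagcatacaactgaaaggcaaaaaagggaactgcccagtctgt
Nfkbia: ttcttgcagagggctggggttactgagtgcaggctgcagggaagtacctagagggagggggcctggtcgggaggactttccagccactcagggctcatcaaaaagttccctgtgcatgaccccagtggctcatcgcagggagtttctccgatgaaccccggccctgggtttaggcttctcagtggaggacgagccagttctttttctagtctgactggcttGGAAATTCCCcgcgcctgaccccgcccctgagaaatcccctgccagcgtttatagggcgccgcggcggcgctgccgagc
Nfkbie: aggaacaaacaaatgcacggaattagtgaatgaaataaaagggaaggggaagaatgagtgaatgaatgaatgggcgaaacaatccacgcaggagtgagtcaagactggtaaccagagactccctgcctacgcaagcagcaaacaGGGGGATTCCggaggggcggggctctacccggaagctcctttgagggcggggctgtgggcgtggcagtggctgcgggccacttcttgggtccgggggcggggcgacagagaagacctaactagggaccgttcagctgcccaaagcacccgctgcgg
A match describes letters in the window and not a bound site. Nothing about the factor follows for the second Tnfaip3 window or the windows of Zc3h12a, Icam1 and Birc3, which held none.

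The libraries held 56582577 UMIs (high_fibre 1), 69600492 UMIs (high_fibre 2), 59317334 UMIs (control_diet 1) and 27577599 UMIs (control_diet 2). Cells were chosen by the UMIs of marker genes: at least 3 UMIs of C1qa for macrophages, of Col1a1 and Dcn for fibroblasts, of Pecam1 and Cdh5 for endothelial cells, and of Kcnj8 and Vtn for pericytes, with each marker seen. Of 20519 cells kept, 3046 passed the macrophage gate, 6174 the fibroblast gate, 6468 the endothelial gate and 927 the pericyte gate. The libraries shared 884 cell barcodes, and 695 of these had most of their UMIs in control_diet 2, with copies of a median of 613 to 656.5 UMIs in the other libraries. A barcode was therefore kept only where it had most UMIs, and keeping every copy left the same members called in each comparison of diets or repeats. The gated macrophages held their defining markers: 6 macrophage genes outside the gate summed to 8410 CPM (high_fibre 1), 9423 CPM (high_fibre 2), 8951 CPM (control_diet 1) and 9520 CPM (control_diet 2), where CPM is UMIs scaled to 1e6 UMIs of that class in that library. The same sum averaged 16.8 CPM in fibroblasts, 32.1 CPM in endothelial cells and 35.2 CPM in pericytes. Levels are sums over cells, so in them fewer cells with a transcript and less transcript per cell cannot be told apart.

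Among the 4 classes tested, 9 of the 10 genes had their highest mean CPM in macrophages. Of the 10, 8 were called higher in macrophages than in each of the other 3 classes. Gates for other immune cells, which changed this order for most genes, are given below. Of all 13737 genes tested between classes, 79.2% were called in macrophages over fibroblasts, 74.7% over endothelial cells and 67.9% over pericytes. The other pairs gave 74% for fibroblasts over endothelial cells, 53.9% for fibroblasts over pericytes and 57.3% for endothelial cells over pericytes. A called difference between classes is therefore the common case, and the sizes say more than the calls. The inhibitor and ubiquitin-editing genes are given first. Tnfaip3 averaged 72.1 ± 36.2 CPM in macrophages, 8.64 ± 0.71 CPM in endothelial cells, 4.84 ± 2.80 CPM in pericytes and 4.47 ± 1.88 CPM in fibroblasts (SD, n = 4 libraries in each class). Nfkbia averaged 907 ± 425 CPM in macrophages, 315 ± 56.6 CPM in endothelial cells, 160 ± 32.7 CPM in pericytes and 137 ± 36.4 CPM in fibroblasts (SD, n = 4), and its difference between fibroblasts and pericytes was not called (adjusted p = 0.838, edgeR). Nfkbie averaged 35.0 ± 8.8 CPM in macrophages, against 6.65 ± 0.72 CPM in endothelial cells, 6.28 ± 1.02 CPM in fibroblasts and 3.54 ± 1.69 CPM in pericytes. For Nfkbia and Tnfaip3 the macrophage libraries fell into separate levels by repeat number, as the plot of levels by class and library shows.

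**Figure D1:**
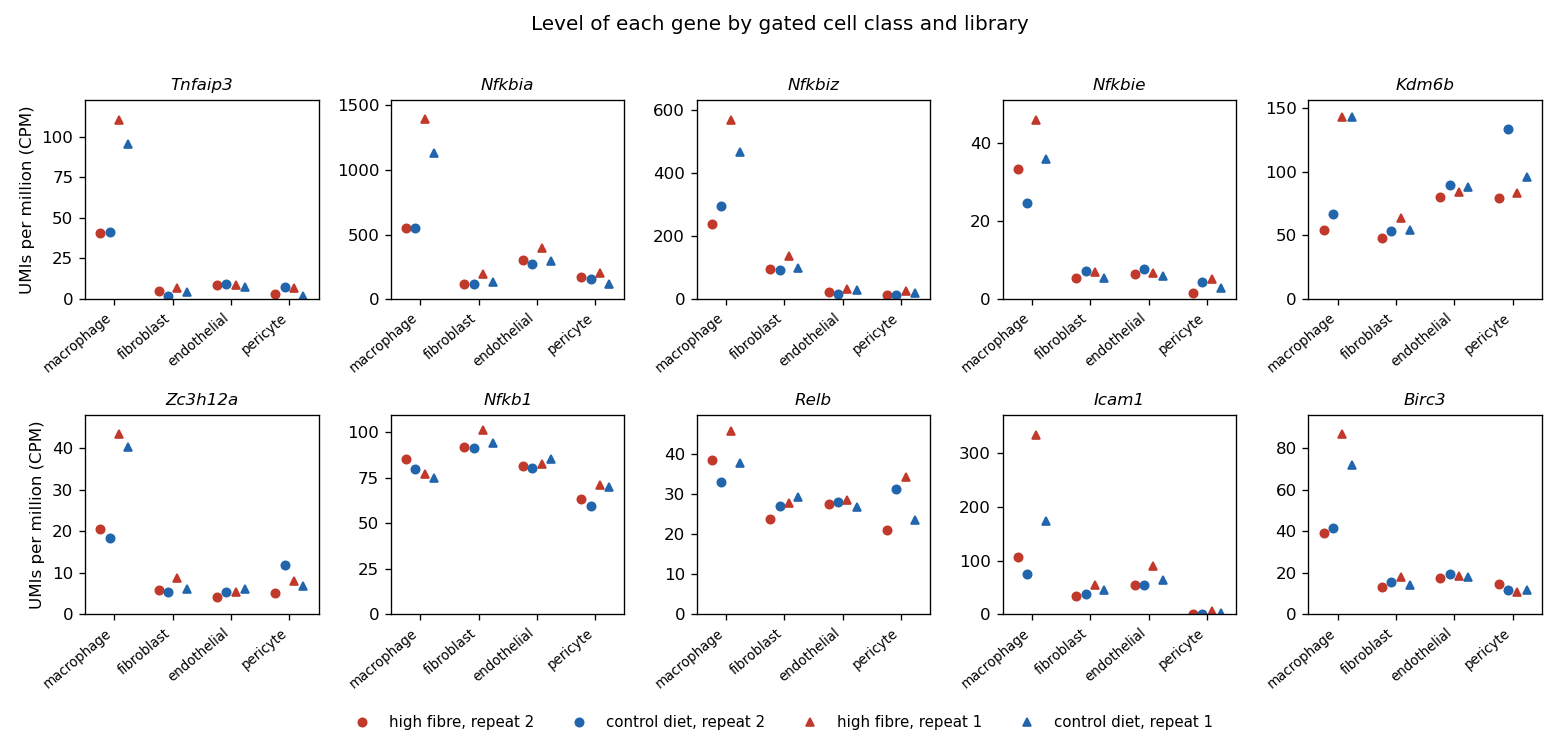
Level of each gene (vertical axis, UMIs per 1e6 UMIs on a linear scale from 0) in 4 gated cell classes; each point is 1 library, red for high fibre, blue for control diet, circles for repeat 2 and triangles for repeat 1. In macrophages the circles of 8 genes lie below both triangles, for instance 553.5 and 548.7 CPM against 1394 and 1131 CPM for Nfkbia, while Nfkb1 varies little within any class.

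Nfkbiz ranked fibroblasts second. It averaged 392.5 ± 153.1 CPM in macrophages, 107.0 ± 20.95 CPM in fibroblasts, 25.3 ± 7.1 CPM in endothelial cells and 17.1 ± 6.7 CPM in pericytes (SD, n = 4), and fibroblasts lay above endothelial cells by 2.12 on the log2 scale (adjusted p = 1.46e-07, edgeR). Icam1, the adhesion gene, averaged 172 ± 115 CPM in macrophages, 65.8 ± 16.5 CPM in endothelial cells and 42.5 ± 9.1 CPM in fibroblasts. In pericytes Icam1 gave 6, 2, 2 and 0 UMIs in high_fibre 1, high_fibre 2, control_diet 1 and control_diet 2, so its level there is near the floor. Zc3h12a averaged 30.6 ± 12.98 CPM in macrophages and 5.30 to 7.96 CPM in the other classes, whose differences were not called. Birc3 averaged 59.9 ± 23.3 CPM in macrophages and 12.2 to 18.3 CPM in the others, again with no called difference among those. Relb averaged 38.9 ± 5.2 CPM in macrophages and 27.0 to 27.7 CPM in the other 3 classes, which did not differ from each other by the test.

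Kdm6b and Nfkb1, like Relb above, were seen in all classes at more even mean levels. For Kdm6b the place of macrophages turned with the repeat. Kdm6b averaged 102 ± 47.9 CPM in macrophages, 98.1 ± 24.9 CPM in pericytes, 85.6 ± 4.3 CPM in endothelial cells and 54.8 ± 6.3 CPM in fibroblasts (SD, n = 4), and macrophages were called higher than fibroblasts alone (log2 difference 1.17, adjusted p = 0.00183, edgeR). In repeat 1 macrophages had 143.2 CPM (high_fibre 1) and 142.9 CPM (control_diet 1), above pericytes and endothelial cells. In repeat 2 they had 54.3 CPM (high_fibre 2) and 66.8 CPM (control_diet 2), below both in CPM. Nfkb1 averaged 94.8 ± 4.5 CPM in fibroblasts, 82.4 ± 2.2 CPM in endothelial cells, 79.3 ± 4.6 CPM in macrophages and 66.0 ± 5.5 CPM in pericytes. The place of macrophages in that order depends on the scaling. TMM scaling, which was used in the tests, raises macrophages over endothelial cells by 0.33, over fibroblasts by 0.31 and over pericytes by 0.63 on the log2 scale for all genes. With it Nfkb1 was 0.28 higher in macrophages than in endothelial cells (adjusted p = 0.000119, edgeR), and with library totals alone the difference was -0.054. Against fibroblasts Nfkb1 in macrophages was 0.06 higher with TMM (adjusted p = 0.31) and 0.26 lower with library totals (log2 difference -0.26, adjusted p = 0.000279), while DESeq2's size factors in edgeR gave 0.12 higher (adjusted p = 0.036).

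The gates for other immune cells gave a further view of the same genes, in far fewer cells. T cells (Cd3d and Cd3e) had the highest Tnfaip3, with a mean of 172 ± 20.9 CPM, and B cells (Cd79a and Cd79b) averaged 35.4 ± 17.2 CPM (SD, n = 4 libraries each). Birc3 averaged 118 ± 19.8 CPM and Nfkbie 39.3 ± 15.5 CPM in B cells. Kdm6b averaged 428 ± 35.2 CPM in cells gated on S100a8 and S100a9, the neutrophil markers, of which there were 60, 36, 32 and 10 in high_fibre 1, high_fibre 2, control_diet 1 and control_diet 2. Neutrophil-gated cells also averaged 921 CPM for Nfkbia, 403.5 CPM for Nfkbiz, 87.7 CPM for Tnfaip3, 51.9 CPM for Zc3h12a and 113 CPM for Birc3. Each of these means lay above that of macrophages, for Nfkbia and Nfkbiz by far less than the neutrophil SDs of 439 and 146 CPM. In high_fibre 1, macrophages were above neutrophils for Nfkbia (1394 CPM against 1122 CPM) and Nfkbiz (569.3 CPM against 436.8 CPM). There Tnfaip3 was also above (110.5 CPM against 105.0 CPM), while Zc3h12a and Birc3 were below. In control_diet 2 the neutrophil values of Tnfaip3 and Zc3h12a came from 1 UMI each, and that of Nfkbia from 8. B cells averaged 46.3 CPM for Relb and 39.7 CPM for Zc3h12a, also above macrophages, while Icam1 was highest in macrophages. High levels of most of these genes were thus shared with other immune gates. The levels in these gates were not tested.

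In macrophages the log2 fold of repeat 2 over repeat 1 was below 0 for 9 of the 10 genes, and 6 passed the test as lower: Tnfaip3, Nfkbia, Nfkbiz, Kdm6b, Zc3h12a and Birc3. Of 11421 genes tested, 1.02% were called in either direction, 5 higher and 112 lower in repeat 2. Since the genes may have been chosen for this difference, their folds and p-values are given as a description, and nothing is read from their count against that share. The median log2 fold of the 10 genes was -1.12, beside 0.01 over all genes tested. Both repeat 2 libraries lay below both repeat 1 libraries for 8 of the 10 genes, against 11.6% of all genes tested.

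Nfkbia, the IκBα gene, had 553.5 CPM (high_fibre 2) and 548.7 CPM (control_diet 2) in repeat 2, against 1394 CPM (high_fibre 1) and 1131 CPM (control_diet 1) in repeat 1. The groups did not overlap, and the log2 fold was -1.28 ± 0.12 (SE, adjusted p = 0.000612, edgeR quasi-likelihood test). Tnfaip3, the A20 gene, had 41.0 CPM (high_fibre 2) and 41.3 CPM (control_diet 2) in repeat 2, against 110.5 CPM (high_fibre 1) and 95.5 CPM (control_diet 1) in repeat 1. Its fold was the largest of the 6 called, at -1.41 ± 0.12 (SE, adjusted p = 0.000477). Nfkbiz had 236.9 CPM (high_fibre 2) and 296.4 CPM (control_diet 2) in repeat 2, against 569.3 CPM (high_fibre 1) and 467.4 CPM (control_diet 1) in repeat 1. Its log2 fold of -1.05 ± 0.15 (adjusted p = 0.0167) was the weakest call, lost without high_fibre 2 (adjusted p = 0.0508) and with a diet term added (0.0726).

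Kdm6b, the demethylase gene, had 54.3 CPM (high_fibre 2) and 66.8 CPM (control_diet 2) in repeat 2, against 143.2 CPM (high_fibre 1) and 142.9 CPM (control_diet 1) in repeat 1, a log2 fold of -1.34 ± 0.12 (SE, adjusted p = 0.000532). Zc3h12a, the mRNA nuclease gene, had 20.6 CPM (high_fibre 2) and 18.3 CPM (control_diet 2) in repeat 2, against 43.4 CPM (high_fibre 1) and 40.2 CPM (control_diet 1) in repeat 1, a log2 fold of -1.17 ± 0.13 (adjusted p = 0.00127). Birc3 had 39.4 CPM (high_fibre 2) and 41.5 CPM (control_diet 2) in repeat 2, against 86.9 CPM (high_fibre 1) and 71.8 CPM (control_diet 1) in repeat 1, a log2 fold of -1.07 ± 0.13 (adjusted p = 0.00258). All 3 genes kept the libraries of a repeat together with no overlap.

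The other 4 genes did not pass the test. Icam1 had the lowest fold, -1.55 ± 0.51, with an adjusted p of 0.618. It had 107.1 CPM (high_fibre 2) and 74.9 CPM (control_diet 2) in repeat 2, against 333.3 CPM (high_fibre 1) and 174.3 CPM (control_diet 1) in repeat 1. Nfkbie had 33.3 CPM (high_fibre 2) and 24.7 CPM (control_diet 2) in repeat 2, against 46.1 CPM (high_fibre 1) and 35.9 CPM (control_diet 1) in repeat 1 (log2 fold -0.55 ± 0.17, adjusted p = 0.276). The call of Icam1 turned on single libraries, as it passed without high_fibre 1 or without control_diet 1, in fits that set 1 library against 2. Icam1 also passed with a diet term added (adjusted p = 2.05e-05, edgeR). Nfkbie passed with a diet term added (adjusted p = 0.0088, edgeR), with no low-count filter (0.00174) and in the fit without control_diet 1. The subunit genes moved least, with log2 folds of -0.30 ± 0.14 for Relb (adjusted p = 0.558) and 0.04 ± 0.10 for Nfkb1 (adjusted p = 0.954). The estimated spread of the 6 called genes within repeats lay between the percentiles 8.2 and 60.2 of all genes tested, and that of Icam1 at 99.

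**Figure D2:**
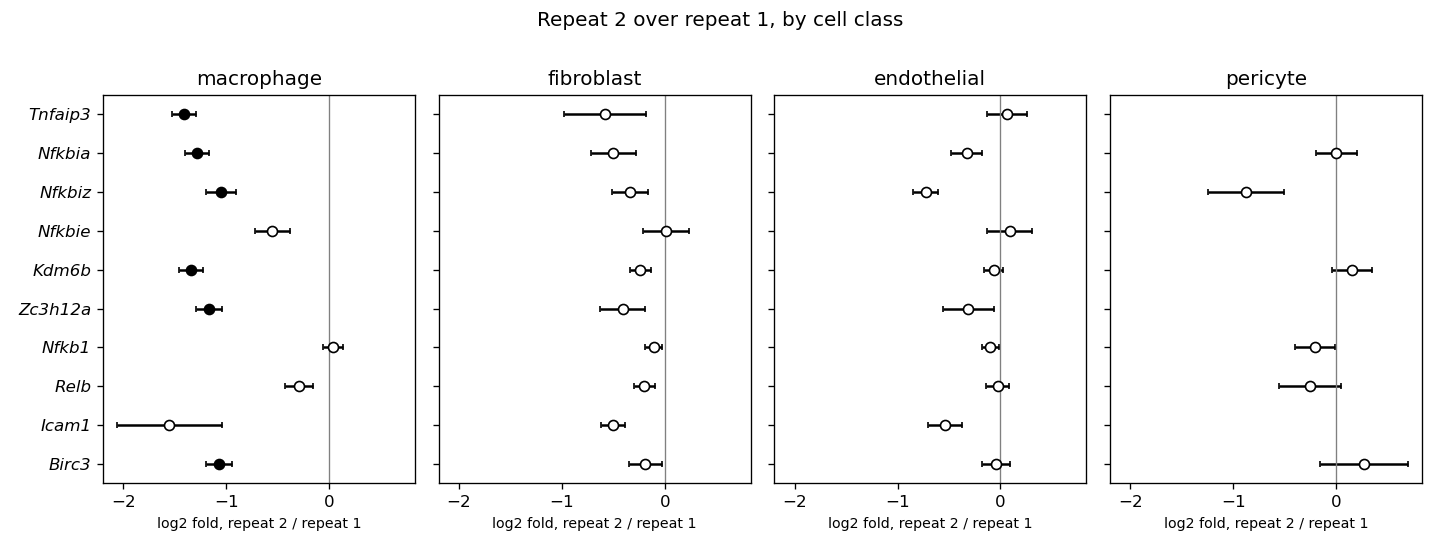
Log2 fold of repeat 2 over repeat 1 (horizontal axis) with its SE for each gene in 4 cell classes; filled points have an adjusted p under 0.05, and genes with no point were too low to test. Filled points are seen in macrophages alone, from -1.41 for Tnfaip3 to -1.05 for Nfkbiz.

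The share of macrophages with at least 1 UMI and the UMIs in those cells were both lower in repeat 2 for Nfkbia and Tnfaip3. Every cell was thinned to 2000 UMIs to set depths equal, which left out 14 cells of high_fibre 2, 6 of control_diet 2, 22 of high_fibre 1 and 8 of control_diet 1. Nfkbia was then seen in 46.6% (high_fibre 2) and 45.8% (control_diet 2) of macrophages in repeat 2, against 74.7% (high_fibre 1) and 71.3% (control_diet 1) in repeat 1. Before thinning the shares were 76.7% and 82.0% in repeat 2, against 89.3% and 89.7% in repeat 1. Tnfaip3 was seen in 7.52% (high_fibre 2) and 8.85% (control_diet 2) of thinned macrophages in repeat 2, against 19.0% (high_fibre 1) and 14.3% (control_diet 1) in repeat 1. Before thinning it was seen in 28.3% and 31.2% in repeat 2, against 47.9% and 41.1% in repeat 1. Thinned macrophages with a UMI of Nfkbia held a mean of 2.37 (high_fibre 2) and 2.32 (control_diet 2) of its UMIs in repeat 2, against 3.84 (high_fibre 1) and 3.13 (control_diet 1) in repeat 1, and for Tnfaip3 the means were 1.12 and 1.04 in repeat 2, against 1.26 and 1.30 in repeat 1. A share of cells at a fixed depth also falls when each cell holds less transcript, so the shares do not separate fewer cells from less transcript per cell. Icam1 was seen in 0 to 0.816% of thinned pericytes, where it is near the floor, against 11.5% to 32.4% of macrophages. Free RNA was not measured.

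**Figure D3:**
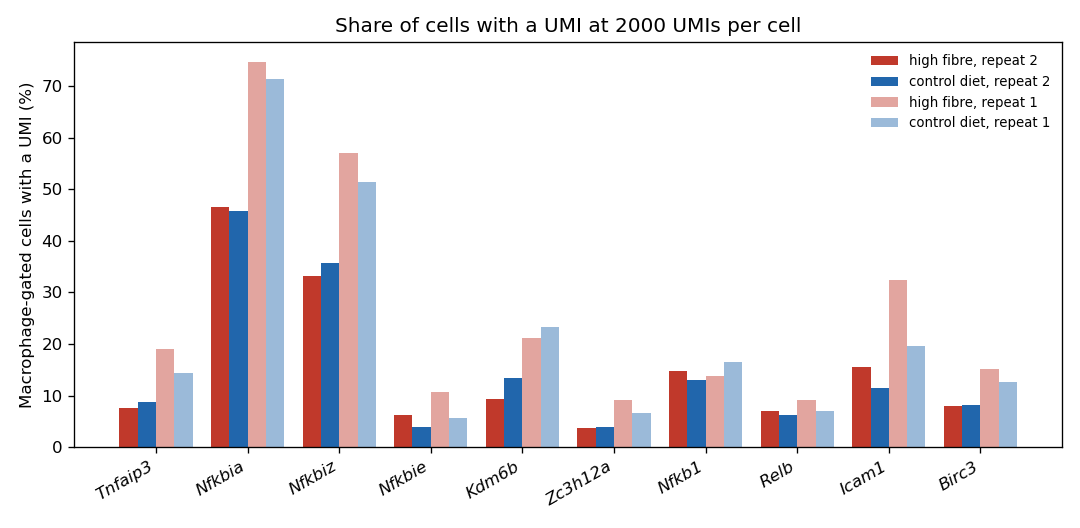
Share of macrophage-gated cells with at least 1 UMI of each gene (vertical axis, percent) after thinning every cell to 2000 UMIs; each bar is 1 library, dark for repeat 2 and pale for repeat 1. The pale bars are higher for Nfkbia, at 74.7% and 71.3% against 46.6% and 45.8%, and about level for Nfkb1.

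In the other classes tested no member was called between repeats with the gates as set and all 4 libraries in the fit. The share of all genes called was 0.00741% in fibroblasts, 0.106% in endothelial cells and 0.0995% in pericytes. In fibroblasts both repeat 2 libraries lay below both repeat 1 libraries for 7 of 10 members, against 15.9% of all genes, with a median log2 fold of -0.29. In endothelial cells this held for 3 of 10 members, against 12.4% of all genes, and in pericytes for 2 of the 6 members tested, against 16% of all genes. Nfkbiz in endothelial cells came nearest to a call, with 20.95 CPM (high_fibre 2) and 17.7 CPM (control_diet 2) in repeat 2, against 32.4 CPM (high_fibre 1) and 30.02 CPM (control_diet 1) in repeat 1 (log2 fold -0.73 ± 0.12, adjusted p = 0.0801). It passed with a gate of 6 UMIs and all 4 libraries (adjusted p = 0.0411) and without high_fibre 1, high_fibre 2 or control_diet 1, and without control_diet 1 Nfkbia, Nfkbiz and Icam1 passed as lower in both fibroblasts and endothelial cells, as they did with no low-count filter. Tnfaip3, Nfkbie, Zc3h12a and Icam1 were too low to test in pericytes. The 2221 cells passing no gate were not tested, but a difference was seen there too. Nfkbia had 346.4 CPM (high_fibre 2) and 257.8 CPM (control_diet 2) in repeat 2, against 692.5 CPM (high_fibre 1) and 473.4 CPM (control_diet 1) in repeat 1. Tnfaip3 had 37.4 CPM and 26.7 CPM in repeat 2, against 88.2 CPM and 59.3 CPM in repeat 1, while Relb overlapped between repeats.

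Whether the repeat difference itself differed between the 4 classes was tested with an interaction term, which called 0.306% of 13737 genes. It was called for Nfkbia (adjusted p = 0.000125), Kdm6b (adjusted p = 0.000125) and Birc3 (adjusted p = 0.0057), and the last call was lost without high_fibre 2 (adjusted p = 0.178) or control_diet 2 (adjusted p = 0.089). It was not called for Nfkbiz (adjusted p = 0.0577), Tnfaip3 (adjusted p = 0.0812), Zc3h12a (adjusted p = 0.573) or Icam1 (adjusted p = 0.876), so for these a difference between classes was not shown. For Kdm6b the log2 fold was -1.34 in macrophages, -0.24 in fibroblasts, -0.07 in endothelial cells and 0.15 in pericytes. In the untested lymphocyte gates, Nfkbia had 297.8 CPM (high_fibre 2) and 206.7 CPM (control_diet 2) in T cells of repeat 2, against 513.4 CPM (high_fibre 1) and 446.7 CPM (control_diet 1) in repeat 1. Tnfaip3 in T cells overlapped between repeats, at 169.2 CPM and 164.5 CPM in repeat 2, against 152.8 CPM and 201.7 CPM in repeat 1.

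Technical measures were compared between repeats in macrophages. The median depth was 10591 UMIs (high_fibre 2) and 13228 UMIs (control_diet 2) in repeat 2, against 10073 UMIs (high_fibre 1) and 9690 UMIs (control_diet 1) in repeat 1, and the median mitochondrial share was 6.21% and 5.57% in repeat 2, against 5.69% and 5.64% in repeat 1. The neutrophil gate genes summed to 3.28 CPM and 2.55 CPM in repeat 2, against 9.17 CPM and 0.77 CPM in repeat 1, and the monocyte markers Ly6c2 and Plac8 to 17.3 CPM and 7.65 CPM, against 3.55 CPM and 9.02 CPM. Immediate early genes, which dissociation of tissue is known to induce, were also lower in macrophages of repeat 2. All 16 listed had log2 folds below 0 there and 10 were called lower, with a median of -0.54, where 1.02% of all genes were called. Their summed level was 18315.5 CPM (high_fibre 2) and 19226.5 CPM (control_diet 2) in repeat 2, against 27761 CPM (high_fibre 1) and 25428 CPM (control_diet 1) in repeat 1. In fibroblasts 14 of the 16 were below 0, with a median of -0.20 and 0 called, and in pericytes 9 of the 16, with a median of -0.11 and 0 called. In endothelial cells all 16 were below 0, with a median of -0.50 beside -0.08 for the 10 members. There 1 was called, where 0.106% of all genes were (Fosb, lost with doublet-scored cells kept or a diet term added). That count of 1 was 8 by DESeq2, 10 with no low-count filter, 4 without high_fibre 1, 4 without high_fibre 2 and 6 without control_diet 1. The count of 10 called in macrophages was 3 without high_fibre 2, 5 without control_diet 2, 7 without high_fibre 1 and 14 without control_diet 1, and 15 with no low-count filter. The part of dissociation or handling in the repeat difference was not tested.

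No member was called between diets in any class with all 4 libraries and no replicate block. The share of all genes called was 0% in macrophages (0 of 11421 genes by edgeR and 0 by DESeq2, with 477 genes at an unadjusted p under 0.05), 0.0519% in fibroblasts, 0.0655% in endothelial cells and 0.177% in pericytes. In macrophages the diet folds ran from -0.08 for Kdm6b to 0.83 for Icam1, with a median of 0.15 beside 0.00 over all genes. Their SEs reached 0.95. Each diet group holds a library of either repeat, and with the libraries grouped by diet 7 members lay between the percentiles 98.9 and 99.6 of spread within groups. Within repeat 2, Nfkbia was 0.01 higher on the log2 scale in high_fibre than in control_diet macrophages, and within repeat 1 it was 0.30 higher, each a difference of single libraries with no test. Icam1 was higher in high_fibre within both repeats, by 0.52 in repeat 2 and 0.93 in repeat 1 (107.1 CPM against 74.9 CPM, and 333.3 CPM against 174.3 CPM). With a replicate block Icam1 was called higher in high_fibre macrophages, as the last section gives beside the count of all genes. The labels give no such pairing. Relb was the member whose macrophage libraries did not overlap between diets, with 45.8 CPM and 38.6 CPM in high_fibre 1 and 2, against 37.9 CPM and 33.1 CPM in control_diet 1 and 2 (log2 fold 0.25 ± 0.16, adjusted p = 1). Of all genes tested in macrophages, 14.9% were higher in high_fibre with no overlap and 14.6% lower.

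In fibroblasts, Tnfaip3 had 6.76 CPM and 4.71 CPM in high_fibre 1 and 2, against 4.21 CPM and 2.19 CPM in control_diet 1 and 2, from 138, 123, 104 and 21 UMIs (log2 fold 0.75 ± 0.32, adjusted p = 0.766). In endothelial cells, Nfkbia had 397.3 CPM and 299.0 CPM in high_fibre 1 and 2, against 293.9 CPM and 268.9 CPM in control_diet 1 and 2 (log2 fold 0.31 ± 0.15, adjusted p = 0.977). In pericytes, Nfkbia had 198.6 CPM and 169.7 CPM in high_fibre 1 and 2, against 120.2 CPM and 153.4 CPM in control_diet 1 and 2 (log2 fold 0.47 ± 0.16, adjusted p = 0.547). Kdm6b ran the other way in pericytes, with 83.5 CPM and 79.4 CPM in high_fibre 1 and 2, against 95.6 CPM and 134.0 CPM in control_diet 1 and 2 (log2 fold -0.44 ± 0.18, adjusted p = 0.764). In endothelial cells Kdm6b (log2 fold -0.12 ± 0.10) and Zc3h12a (-0.30 ± 0.25) were also lower in high_fibre with no overlap between the diets, each with an adjusted p of 0.998. Of all genes tested in endothelial cells, 15.9% were lower in high_fibre with no overlap. None of the members named here passed the adjustment over all genes. Without high_fibre 2, the high_fibre group held repeat 1 alone, so diet was mixed with repeat. In that fit Nfkbia and Nfkbiz were called higher in high_fibre fibroblasts, where far more genes were called than with all libraries. The interaction of diet with class, called for 0.0946% of genes, was not called for any member.

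**Figure D4:**
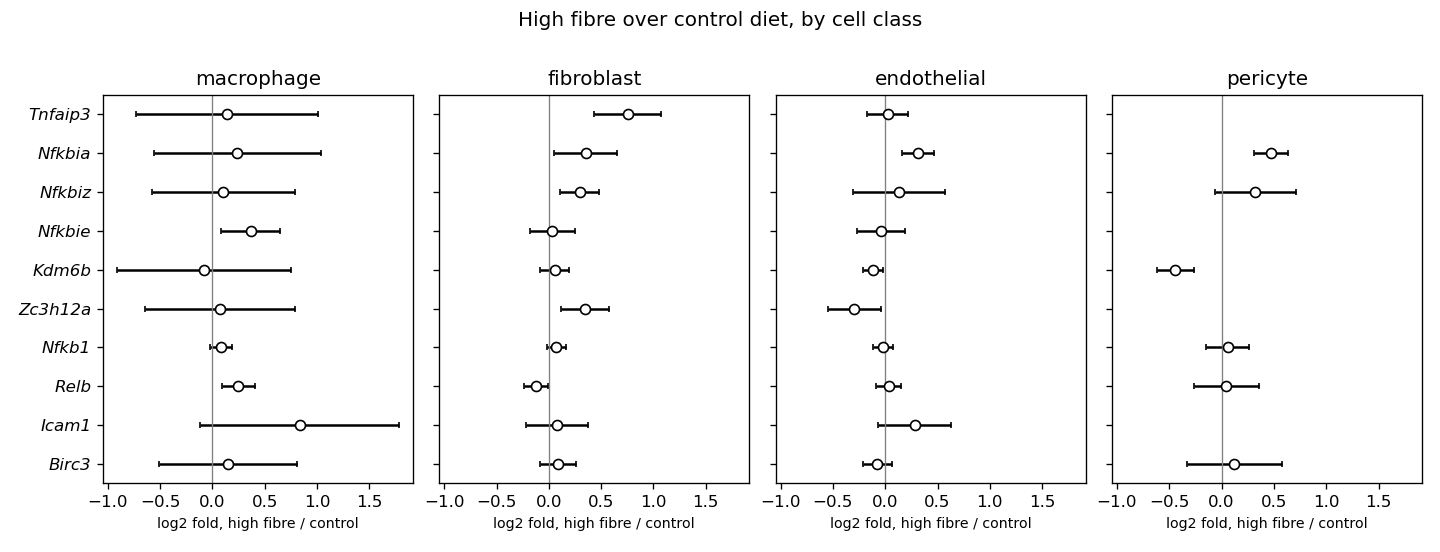
Log2 fold of high fibre over control diet (horizontal axis) with its SE for each gene in 4 cell classes; no point is filled, since no adjusted p was under 0.05. The bars are longest in macrophages, up to an SE of 0.95 for Icam1, and the lowest adjusted p, 0.547, belongs to Nfkbia in pericytes at 0.47, followed by Kdm6b in pericytes at -0.44 (adjusted p = 0.764).

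A wider list of 55 pathway genes, not holding the 10 members, was read in the same fits. In macrophages 50 were high enough to test between repeats, and 11 were called lower and 0 higher in repeat 2, with a median log2 fold of -0.17. Of all 11421 genes tested there, 112 were called lower and 5 higher, with a median of 0.01. The list was chosen with earlier results of these data known, so its counts are a description. The response genes carried most of the 11 calls: 8 of 18 tested were called, with a group median of -1.02. Il1b, an inflammatory cytokine gene, had 217.5 CPM (high_fibre 2) and 303.5 CPM (control_diet 2) in repeat 2, against 793.5 CPM (high_fibre 1) and 643.1 CPM (control_diet 1) in repeat 1 (log2 fold -1.56 ± 0.21, adjusted p = 0.0478). Cxcl10, a chemokine gene, had 82.6 CPM (high_fibre 2) and 91.5 CPM (control_diet 2) in repeat 2, against 190.7 CPM (high_fibre 1) and 178.2 CPM (control_diet 1) in repeat 1 (log2 fold -1.18 ± 0.10, adjusted p = 0.000532). The other response genes called were Il6, Il1a, Irf1, Cxcl1, Ier3 and Tnf, with log2 folds from -2.75 for Il6 to -0.69 for Tnf. Il6 itself was low, at 0.97 CPM (high_fibre 2) and 0.51 CPM (control_diet 2) in repeat 2, against 5.91 CPM (high_fibre 1) and 4.90 CPM (control_diet 1) in repeat 1. The count of 11 was 7 without high_fibre 2, 6 without control_diet 2, 15 without high_fibre 1 and 19 without control_diet 1, and with no low-count filter 17 were called lower and 1 higher. Il1b lost its call with a diet term added (adjusted p = 0.284) and with DESeq2's size factors (0.0548). Tnf and Irf1 lost theirs without high_fibre 2 or control_diet 2, and Il1a without control_diet 2 (adjusted p = 0.0648).

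The upstream parts of the pathway gave fewer calls. Of 12 adaptors and kinases tested none was called, with a group median of -0.01, and none of 8 ubiquitin regulators, with a median of -0.04. Among 6 receptors Tlr2 was called lower (-0.60), and among 6 further subunits and inhibitors Rel (-0.79), a subunit of NF-kappaB, and Nfkbid (-1.19), a nuclear IκB protein, were called lower, Tlr2 and Rel not without high_fibre 2 or control_diet 2. Outside macrophages Cxcl10 was called lower in fibroblasts (-2.92, not without high_fibre 2) and Ier3 in endothelial cells (-0.95). Without control_diet 1 the count of 1 called lower was 10 in fibroblasts and 6 in endothelial cells, and with no low-count filter it was 6 and 5. Between diets none of the 55 genes was called in any class in the main fit. Without high_fibre 2, where the high_fibre group held repeat 1 alone, some were called in fibroblasts, mostly as higher in high_fibre. In each comparison with no call, the pathway genes with the largest fitted folds were as follows. Between diets in macrophages they were Ptgs2, the inducible cyclooxygenase gene (log2 fold 0.86 ± 1.21), and Tnip3, a partner of A20 (0.69 ± 0.16), each with an adjusted p of 1. Tnip3 had 31.0 CPM and 27.7 CPM in high_fibre 1 and 2, against 16.7 CPM and 20.4 CPM in control_diet 1 and 2, with no overlap. The same held for 14.9% of all genes tested in macrophages. In fibroblasts they were Il1b (1.37 ± 0.38, adjusted p = 0.419) and the adhesion gene Sele (-1.20 ± 0.51, adjusted p = 0.728). In endothelial cells they were Sele (1.78 ± 1.83) and Selp (1.59 ± 1.21), both selectin genes with an adjusted p of 0.998. In pericytes they were Gadd45b (1.01 ± 0.40, adjusted p = 0.764) and the chemokine gene Ccl2 (0.97 ± 0.26, adjusted p = 0.129). Between repeats in pericytes they were the chemokine gene Cxcl1 (-1.70 ± 0.38, adjusted p = 0.115) and Gadd45b (-1.06 ± 0.41, adjusted p = 0.764).

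**Figure D5:**
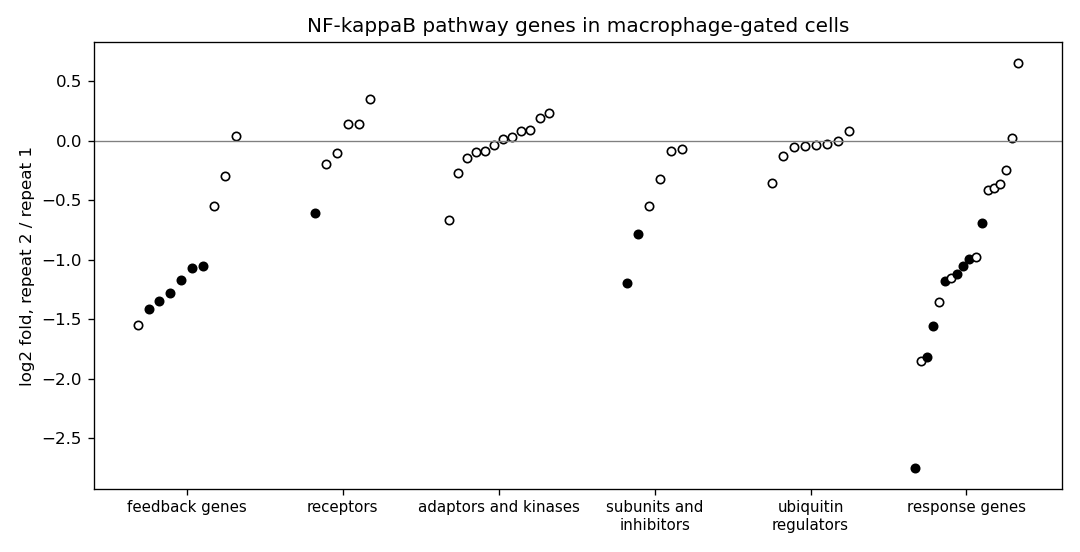
Log2 fold of repeat 2 over repeat 1 in macrophages (vertical axis) for the 10 feedback genes and 50 further pathway genes by role; each point is 1 gene and filled points have an adjusted p under 0.05. Adaptors, kinases and ubiquitin regulators gather near 0, with group medians of -0.01 and -0.04, while response genes reach -2.75.

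Genes with a pattern like that of the 10 were ranked by the correlation of log2 CPM with the members' mean over the 16 sums of class and library, among 8345 genes, with class means removed. The nearest were Nufip2 (r = 0.96), Azin1 (r = 0.95), Srsf2 (r = 0.95), Clk1 (r = 0.94) and Ccnl1 (r = 0.94). With class means kept they were Nfe2l2 (r = 0.99), Mcl1 (r = 0.99), Ier3 (r = 0.98), Wdr26 (r = 0.98) and Sertad1 (r = 0.97). The 16 sums share 4 libraries and differ in depth by class, so these values are a description. Of the members, Nfkbia followed the mean of the other 9 most closely with class means removed (r = 0.89) and Icam1 least (r = 0.31). Icam1 had 6, 2, 2 and 0 UMIs in the pericyte sums, so its r rests in part on values near the floor. The 8345 genes had passed the low-count filter in every class, which Tnfaip3, Nfkbie, Zc3h12a and Icam1 had not in pericytes. Nfkb1 overlaps Gm43430 on its own strand (GENCODE M21), so a small part of its UMIs could belong to that gene. Kdm6b overlaps Kdm6bos and Icam1 overlaps Gm47079, both on the other strand.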

How the data were processed

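The authors deposited matrices of UMI counts (whole numbers, genes by barcodes), made with Cell Ranger 3.1.0 on mm10 per the submitters' processing notes. A barcode was kept if it held 500 UMIs and 250 genes or more and no more than 20% mitochondrial UMIs. Doublets were scored against simulated doublets within each library (0.8% per 1000 barcodes left out), and cells passing several gates were left out. Copies of barcodes shared between libraries were left out, a choice made after seeing the data. Of 26765 barcodes, 20519 cells remained.

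UMIs were summed per library and class and tested with edgeR 4.0.16 (quasi-likelihood, robust, TMM, filterByExpr minimum count 10, R 4.3.3), adjusted by Benjamini-Hochberg over all genes at 0.05. Fits between classes held library as a covariate. DESeq2 1.42.0, other scalings, gates and left-out libraries were alternatives. Python 3.11.15, scikit-learn 1.9.0 and matplotlib 3.10.9 were used. The members, lists and groupings were chosen with earlier results of these data known, and all 10 members are named. The pathway genes named are those that passed the test or, in a comparison where none did, the 2 with the largest fold. Likeness was ranked by Pearson correlation. The fit was tested on simulated data: its false share lay near the nominal one, above it in some comparisons, where spread followed the trend, and it called more unchanged genes than nominal where spread varied by gene, mostly those of highest spread. Calls for genes of high spread are therefore less certain.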

Additional observations from a re-analysis of the deposited data

Results flagged for a closer look

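The difference between repeat 2 and repeat 1 differed between cell classes for 3 members by the interaction term of edgeR. The adjusted p was 0.000125 for Nfkbia, whose log2 fold was -1.28 in macrophages, -0.50 in fibroblasts, -0.33 in endothelial cells and 0.00 in pericytes. It was 0.000125 for Kdm6b, with -1.34 in macrophages and 0.15 in pericytes. For Birc3 it was 0.0057, with -1.07 in macrophages, -0.19 in fibroblasts, -0.04 in endothelial cells and 0.27 in pericytes.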

How the results depend on the processing

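Between repeats in macrophages, 5 to 8 members were called lower under every alternative run, Tnfaip3, Nfkbia, Kdm6b, Zc3h12a and Birc3 each time. No paired design is given by the labels, and the correlation of same-numbered deviations was 0.19 in macrophages, 0.07 in fibroblasts, 0.11 in endothelial cells and 0.09 in pericytes. With a replicate block, 33 genes were called between diets in macrophages and 33 in pericytes, and of the members Icam1 in macrophages (log2 fold 0.76, adjusted p = 0.0204) was called. The block left Nfkbiz in macrophages at -0.0015. Without the low-count filter, the counts of called genes were 59 (diet macrophage), 279 (diet fibroblast), 131 (diet endothelial), 420 (repeat macrophage), 182 (repeat fibroblast), 160 (repeat endothelial), 16 (repeat pericyte), 358 (diet by class), 314 (repeat by class). By DESeq2, the counts of called genes were 38 (diet fibroblast), 16 (diet endothelial), 1 (diet pericyte), 28 (repeat fibroblast), 32 (repeat endothelial), 1 (repeat pericyte). With a gate of 6 UMIs, the counts of called genes were 5 (diet endothelial), 6 (diet pericyte), 0 (repeat pericyte). With doublet-scored cells kept, the counts of called genes were 1 (diet fibroblast), 15 (diet endothelial), 7 (repeat endothelial), 27 (diet by class). With a diet term added, the counts of called genes were 344 (repeat macrophage), 36 (repeat pericyte). Leaving out each library in turn, counts ran 0 to 36 (diet macrophage, 0 with all), 7 to 287 (diet fibroblast, 7 with all), 21 to 167 (diet endothelial, 8 with all), 7 to 31 (diet pericyte, 16 with all), 46 to 579 (repeat macrophage, 117 with all), 0 to 110 (repeat fibroblast, 1 with all), 22 to 124 (repeat endothelial, 13 with all), 12 to 58 (repeat pericyte, 9 with all), 2 to 97 (diet by class, 13 with all), 15 to 147 (repeat by class, 42 with all). For diet in macrophage, log2 values that changed sign ran -0.83 to 0.94 (Tnfaip3), -0.66 to 0.89 (Nfkbia), -0.74 to 0.64 (Nfkbiz), -1.02 to 0.63 (Kdm6b), -0.63 to 0.85 (Zc3h12a), -0.29 to 1.62 (Icam1), -0.61 to 0.66 (Birc3). For diet in fibroblast, log2 values that changed sign ran -0.066 to 0.68 (Nfkbia), -0.21 to 0.24 (Nfkbie), -0.17 to 0.26 (Kdm6b), -0.016 to 0.16 (Nfkb1), -0.26 to 0.0047 (Relb), -0.33 to 0.40 (Icam1), -0.17 to 0.32 (Birc3). For diet in endothelial, log2 values that changed sign ran -0.11 to 0.15 (Tnfaip3), -0.24 to 0.59 (Nfkbiz), -0.21 to 0.13 (Nfkbie), -0.069 to 0.040 (Nfkb1), -0.021 to 0.094 (Relb), -0.14 to 0.63 (Icam1), -0.14 to 0.0035 (Birc3). For diet in pericyte, log2 values that changed sign ran -0.29 to 0.81 (Nfkbiz), -0.048 to 0.20 (Nfkb1), -0.33 to 0.39 (Relb), -0.13 to 0.30 (Birc3). For repeat in fibroblast, log2 values that changed sign ran -0.20 to 0.24 (Nfkbie), -0.38 to 0.015 (Birc3). For repeat in endothelial, log2 values that changed sign ran -0.058 to 0.17 (Tnfaip3), -0.055 to 0.24 (Nfkbie), -0.16 to 0.025 (Kdm6b), -0.094 to 0.031 (Relb), -0.13 to 0.049 (Birc3). For repeat in pericyte, log2 values that changed sign ran -0.32 to 0.44 (Nfkbia), -0.19 to 0.56 (Kdm6b), -0.51 to 0.078 (Relb). For levels of fibroblast over endothelial, log2 values that changed sign ran -0.094 to 0.025 (Relb). For levels of fibroblast over pericyte, log2 values that changed sign ran -0.0044 to 0.21 (Nfkbia). Signs turned with a gate of 6 UMIs at -0.073 (Tnfaip3 diet in endothelial), 0.018 (Relb repeat in endothelial). Signs turned with doublet-scored cells kept at -0.0014 (Relb diet in endothelial), -0.099 (Tnfaip3 repeat in endothelial), -0.061 (Nfkbie repeat in endothelial), -0.017 (Nfkbia repeat in pericyte). Signs turned with DESeq2 at -0.0012 (Nfkbia repeat in pericyte). Signs turned with shared-barcode copies kept at -0.0058 (Nfkbia repeat in pericyte). Signs turned with a diet term at -0.017 (Nfkbia repeat in pericyte). Signs turned with library totals only at -0.26 (Nfkb1 macrophage over fibroblast), -0.054 (Nfkb1 macrophage over endothelial), -0.24 (Nfkbia fibroblast over pericyte), -0.17 (Zc3h12a fibroblast over pericyte), -0.0012 (Relb fibroblast over pericyte), -0.14 (Kdm6b endothelial over pericyte). Of the turned values, Nfkb1 in macrophages over fibroblasts with library totals was called, and the cause was not tested. Library totals and shared-barcode copies were alternatives added after seeing the data. Depth limits pericytes most, with 4 members too low to test.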
